A study of Caenorhabditis elegans with 12 samples.

Results

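The genes described here are the heat-shock transcription factor gene hsf-1 of the nematode Caenorhabditis elegans and hsf-2, on the same chromosome. With them stand the genes of proteins that hold the factor in check: hsb-1, ddl-1, ddl-2 and hsp-90 (also written daf-21). All 6 genes were chosen by name, as the probe sets whose annotated symbol is 1 of them. Of the 6, 5 are among the 17118 genes read by a probe set of their own. A probe set is the group of short oligonucleotides on an Affymetrix array that together read 1 transcript. The rule found 9 probe sets among the 22548 measured. Of these, 8 carry a single symbol and read 5 genes: hsf-1, hsb-1 and hsp-90 through 2 probe sets each, and ddl-1 and ddl-2 through 1. The ninth, 184292_at, is assigned to hsf-2 together with Y53C10A.15, so its signal cannot be given to either alone. In the RefSeq gene table of the assembly WBcel235, hsf-2 is listed as a pseudogene and Y53C10A.15 as a protein-coding gene on the same chromosome.

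All arrays came from the whole body of wild-type N2 Bristol animals, grown from embryos at 23 °C for 2.5 days to adulthood and then moved to 17 °C. Total RNA was taken just before the move (0 h, n = 4) and after 1 h (n = 2), 2 h (n = 2) and 4 h (n = 4) at 17 °C. By the labels the groups shared strain, genotype, stage and tissue, and some of the worms collected went to a thermotaxis assay. Animals left at 23 °C over these hours were not arrayed, so temperature cannot be told apart from time and handling. The arrays of 1 h and 2 h are all replicates 1 and 2. The labels do not say that replicates were separate cultures, and p-values measure only the spread between these samples. In whole animals, fewer cells of a type and less RNA per cell cannot be told apart either, and a change confined to a few cells could be missed.

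Heat-shock factor is kept inactive in unstressed cells and, when proteins unfold, forms trimers that bind heat-shock elements in the promoters of chaperone genes. HSP90 and HSP70 chaperones hold back heat-shock factor in many animals. In the worm, HSB-1, a small coiled-coil protein related to the human heat shock factor binding protein, is known to join DDL-1 and DDL-2 in a complex with HSF-1 that lowers its activity, and insulin-like signalling acts on this complex. Regulation of HSF-1 is thus known to act largely on the protein, which an array does not measure.

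None of the 9 probe sets passed the test at any time after the move to 17 °C. In the limma fit over all 12 arrays, with p-values adjusted by Benjamini-Hochberg over all probe sets and a threshold of 0.05, 0 of 9 were called at 1 h, 2 h or 4 h, for the mean of 1 h and 2 h, or by the F test over the 3 times. Over all probe sets, 0% were called at 1 h, 0.967% at 2 h, 0.665% for the mean of 1 h and 2 h, 2.3% at 4 h and 1.77% by the F test. At an unadjusted p under 0.05 the members counted 0 of 9 at 1 h, 3 at 2 h, 3 for the mean of 1 h and 2 h, 1 at 4 h and 2 by the F test, against 6.42%, 12.8%, 11.8%, 12.7% and 13.3% of all probe sets. Those at 2 h were both hsp-90 probe sets and the one shared by hsf-2. The probe sets of hsp-90 were also called at 2 h under another treatment of the spread, described with their values.

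**Figure D1:**
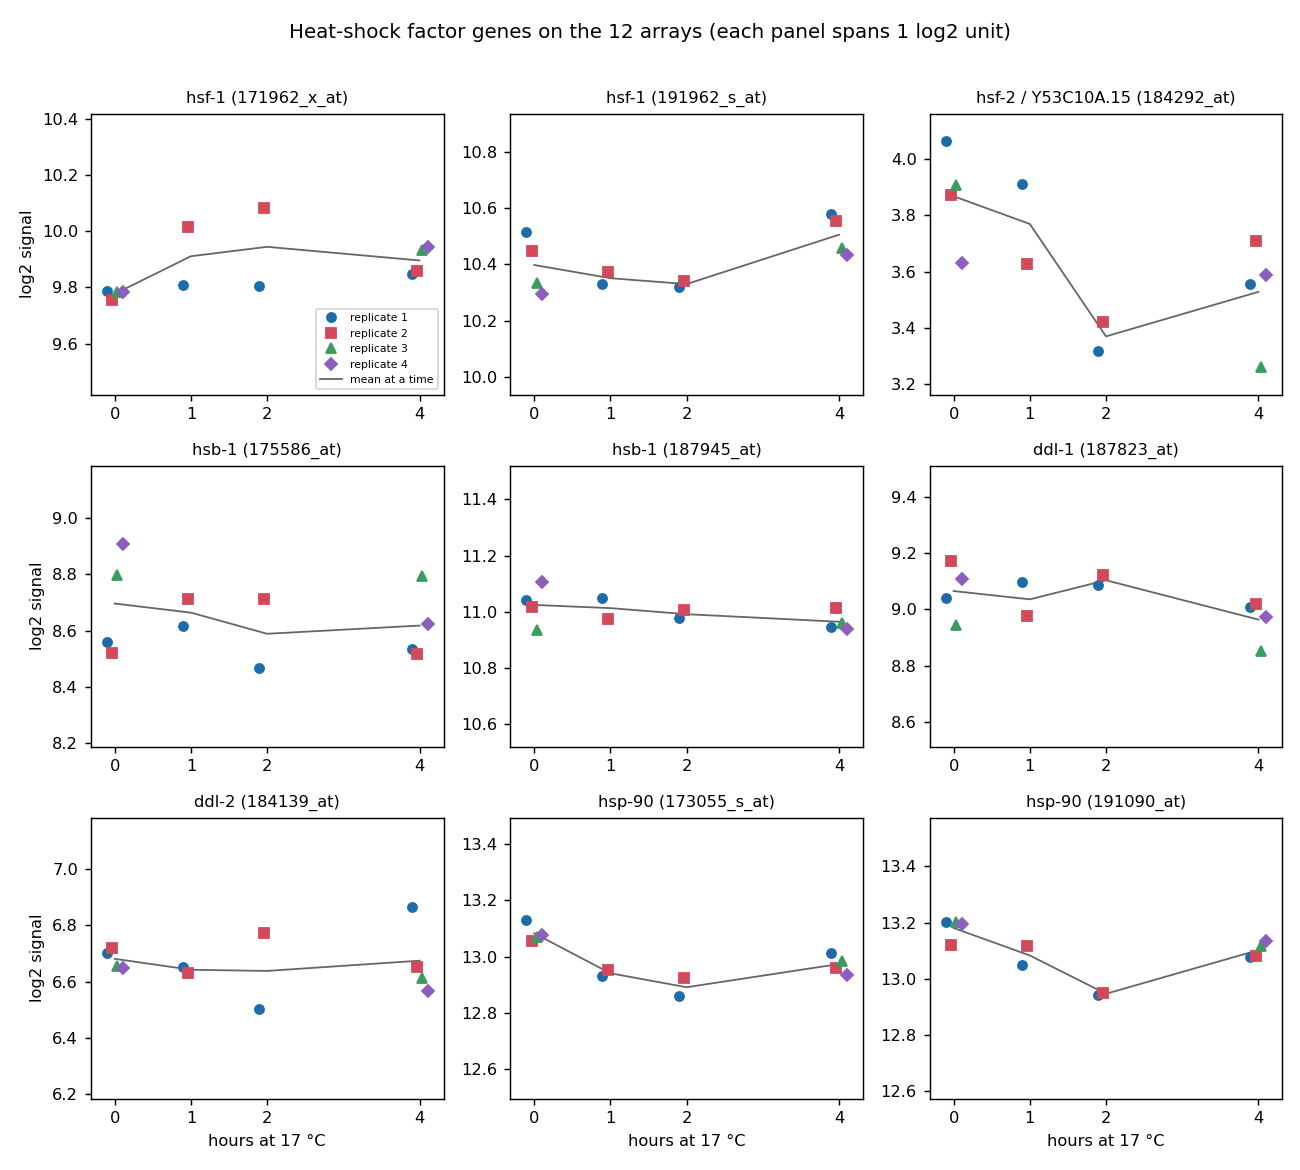
Log2 signal (vertical axis) against hours at 17 °C (horizontal axis) for the 9 probe sets on the 12 arrays; colours and symbols mark replicate numbers, and the grey line joins the means of each time. Each panel spans the same 1 log2 unit, so that the lower 2 h signals of hsp-90, the lower 2 h and 4 h means of the probe set shared by hsf-2 and Y53C10A.15 and the overlapping times of hsb-1, ddl-1 and ddl-2 can be read on one scale.

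The transcription factor gene hsf-1 differed little in level between the times. On probe set 171962_x_at the log2 signal was 9.79, 9.75, 9.78 and 9.78 at 0 h, 9.81 and 10.01 at 1 h, 9.81 and 10.08 at 2 h, and 9.85, 9.86, 9.93 and 9.94 at 4 h. All 8 later arrays lay above the 4 arrays of 0 h, which 0.905% of all probe sets showed; for the 4 h arrays alone the share was 4.61%, and for the arrays of 1 h and 2 h 2.71%. The 1 h and 2 h arrays of replicate 2 were the highest of the 12, while those of replicate 1 lay close to 0 h. The change at 4 h was 0.12 (SE 0.0761, 95% interval -0.05 to 0.28, limma adjusted p = 0.605). By an exact two-sided permutation test over the 8 arrays of 0 h and 4 h the unadjusted p was 0.0286, the smallest that 4 against 4 arrays can give.

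On the other hsf-1 probe set, 191962_s_at, the signal was 10.52, 10.45, 10.33 and 10.29 at 0 h, 10.33 and 10.37 at 1 h, 10.32 and 10.34 at 2 h, and 10.58, 10.55, 10.46 and 10.43 at 4 h. Here the 0 h and 4 h arrays overlapped, and the early arrays lay within the range of 0 h. At 0 h replicates 1 and 2 (mean 10.48) were higher than replicates 3 and 4 (10.31), and the early arrays are replicates 1 and 2. Against the 0 h array of their own number, the early arrays stood at -0.19 and -0.07 at 1 h and at -0.20 and -0.11 at 2 h. On 191962_s_at the change at 4 h was 0.11 (SE 0.071, 95% interval -0.05 to 0.26, limma adjusted p = 0.621), from 10.40 ± 0.102 to 10.51 ± 0.071 (SD, n = 4 each). Within replicate numbers 1 to 4 the step from 0 h to 4 h was 0.06, 0.11, 0.13 and 0.14 on 191962_s_at and 0.06, 0.11, 0.15 and 0.16 on 171962_x_at. Both probe sets were thus higher at 4 h in each of the 4 numbers, a single sign that 7 of the 9 probe sets and 27.1% of all probe sets had.

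At 1 h and 2 h the hsf-1 probe sets lay on opposite sides of the mean of all 4 arrays of 0 h. For the mean of 1 h and 2 h, 171962_x_at changed by 0.15 (95% interval -0.01 to 0.32, limma adjusted p = 0.475) and 191962_s_at by -0.06 (-0.21 to 0.10, limma adjusted p = 0.82). The exact permutation p was 0.0286 for 171962_x_at, the smallest that 4 against 4 arrays can give, and 0.371 for 191962_s_at. The 4 early arrays are replicates 1 and 2 at 1 h and at 2 h. Deviations from the time mean correlated between the 1 h and 2 h arrays of one number (r = 0.185). The permutation test counts these arrays as 4 separate samples, so its p for this comparison may be too small. Without replicate 2 at 2 h the change of 171962_x_at was 0.08, and without replicate 1 at 2 h it was 0.22. Within an array, the log2 ratio of the first to the second moved by 0.21 from 0 h to these early arrays (exact permutation p = 0.0857, Benjamini-Hochberg p = 0.514 over 6 such comparisons), which missed the threshold. Over the 12 arrays the signals of the 2 probe sets had a Pearson r of -0.05. The suffix of 171962_x_at marks oligonucleotides that can bind other transcripts; the part of such binding in its values was not tested. At the outer end of these intervals, hsf-1 transcript was at most 21.7% higher at 4 h by 171962_x_at and 19.8% higher by 191962_s_at.

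The chaperone gene hsp-90, which encodes the cytosolic HSP90 that folds kinases and receptors, was lowest at 2 h. On probe set 191090_at the log2 signal was 13.20, 13.12, 13.20 and 13.19 at 0 h, 13.05 and 13.12 at 1 h, 12.94 and 12.95 at 2 h, and 13.08, 13.08, 13.12 and 13.13 at 4 h. On 173055_s_at it was 13.13, 13.06, 13.07 and 13.08 at 0 h, 12.93 and 12.95 at 1 h, 12.86 and 12.92 at 2 h, and 13.01, 12.96, 12.98 and 12.94 at 4 h. On both probe sets each array of 1 h and 2 h lay below each array of 0 h, as on 3.4% of all probe sets (on 191090_at replicate 2 at 1 h by less than 0.01), and both 2 h arrays lay below those of 4 h. On 173055_s_at the 4 h arrays, too, lay wholly below 0 h (4.54% of all probe sets), which makes all 8 later arrays lower than the 4 of 0 h (0.94% of all probe sets), while on 191090_at the 4 h and 0 h arrays overlapped. Counted in either direction, 2 of the 9 probe sets had 4 h arrays that did not overlap 0 h, against 9.15% of all.

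At 2 h hsp-90 changed by -0.23 on 191090_at (SE 0.0731, 95% interval -0.39 to -0.08, limma adjusted p = 0.185, unadjusted p = 0.00695) and by -0.19 on 173055_s_at (SE 0.0729, 95% interval -0.35 to -0.03, limma adjusted p = 0.286, unadjusted p = 0.0208). In linear terms the estimates are -15.0% and -12.4%. For the mean of 1 h and 2 h the changes were -0.17 on each probe set (limma adjusted p = 0.294 and 0.29). The exact permutation p was 0.0286 for each, the smallest that 4 against 4 arrays can give. Here, too, the early arrays of one replicate number are counted as separate samples, so this p may be too small. By 4 h the changes were -0.08 on 191090_at (limma adjusted p = 0.692) and -0.11 on 173055_s_at (limma adjusted p = 0.508). The exact permutation p at 4 h was 0.0571 on 191090_at and 0.0286 on 173055_s_at. Within replicate numbers 1 and 2, hsp-90 was lower at 2 h than at 0 h by values of -0.26 and -0.17 on 191090_at and of -0.27 and -0.13 on 173055_s_at.

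The hsp-90 probe sets followed each other over the arrays. Their signals had a Pearson r of 0.84 over the 12 arrays, and their log2 ratio moved by -0.03 at 4 h and by less than 0.01 for the mean of 1 h and 2 h (Benjamini-Hochberg exact permutation p = 0.971 for both). These 2 probe sets read 1 gene from the same RNA and are not independent of each other.

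Whether hsp-90 passed at 2 h depended on how the spread between arrays was estimated. The standard deviation within times was 0.0337 on 191090_at and 0.0329 on 173055_s_at, against a median of 0.139 over all probe sets, and only 0.368% and 0.288% of probe sets had a value as small. Both also lay among the brightest, above 99.7% of probe sets at 0 h. In the default limma setting the spread of each probe set is drawn towards one value common to all. When it was drawn towards the value usual at its own brightness instead (eBayes with trend and robust), hsp-90 was called lower at 2 h on 191090_at (-0.23, SE 0.0454, adjusted p = 0.0124) and on 173055_s_at (-0.19, SE 0.0457, adjusted p = 0.0449). In that setting 1.4% of all probe sets were called at 2 h (0.537% lower) and 0.869% for the mean of 1 h and 2 h (0.279% lower), where both hsp-90 probe sets were also called (limma adjusted p = 0.0386 each). The F test called 191090_at alone among the 9 (limma adjusted p = 0.0402), beside 2.31% of all probe sets. At 4 h, where 2.79% of probe sets were called, neither was (limma adjusted p = 0.391 and 0.163), nor at 1 h (0.786 and 0.61). No other member was called at any time in that setting.

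Leaving out each of the 12 arrays in turn, a check chosen after the call was seen, changed the 2 h estimate little and the call more. On 191090_at the change stayed between -0.25 and -0.23 and was called in 10 of 12 fits; the exceptions were the fits lacking 1 of the 2 h arrays (limma adjusted p up to 0.196). On 173055_s_at the change lay between -0.22 and -0.16 and was called in 0 of 12 fits, with adjusted p from just above the threshold to 0.237. The call of 173055_s_at was also lost without an array of 1 h or 4 h, where the change is the same -0.19 by construction. For the mean of 1 h and 2 h each probe set was called in 2 of 12 fits, with changes between -0.18 and -0.15 on 173055_s_at and between -0.19 and -0.15 on 191090_at.

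**Figure D2:**
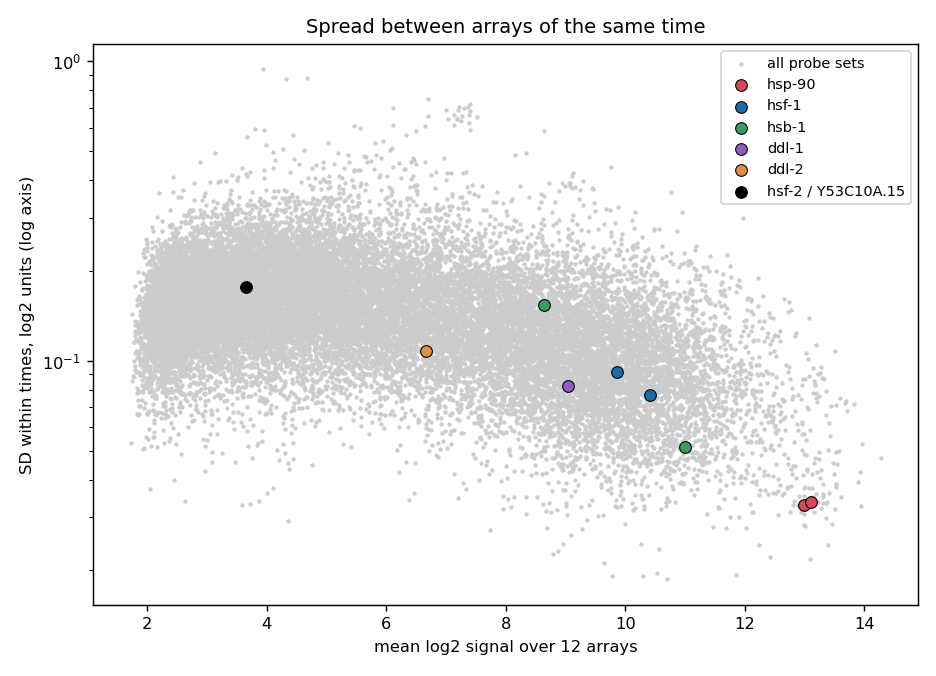
Standard deviation between arrays of the same time (vertical log axis, log2 units) against the mean log2 signal over the 12 arrays (horizontal axis) for all 22548 probe sets in grey and the 9 described here in colour. The 2 hsp-90 probe sets lie at the bright, low-spread edge, at 0.0337 and 0.0329.

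The inhibitor genes of the HSF-1 complex were close to level. The gene hsb-1 was measured on 187945_at at 11.04, 11.02, 10.94 and 11.10 at 0 h, 11.05 and 10.98 at 1 h, 10.98 and 11.01 at 2 h, and 10.95, 11.01, 10.96 and 10.94 at 4 h. These groups overlapped throughout, and over the 12 arrays this probe set spanned 0.17 log2 units, with a standard deviation that only 1.22% of probe sets matched or undercut. The change at 4 h was -0.06 (95% interval -0.20 to 0.08, limma adjusted p = 0.802), which bounds a fall at 12.8% and a rise at 5.5%.

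The second hsb-1 probe set, 175586_at, was more uneven, at 8.56, 8.52, 8.80 and 8.91 at 0 h, 8.62 and 8.71 at 1 h, 8.47 and 8.71 at 2 h, and 8.53, 8.52, 8.80 and 8.62 at 4 h. At 0 h replicates 3 and 4 (mean 8.85) were higher than replicates 1 and 2 (8.54), and the arrays of 1 h and 2 h are replicates 1 and 2. The 1 h change was -0.03 against all 4 arrays of 0 h and 0.12 against replicates 1 and 2 alone. At 4 h it changed by -0.08 (95% interval -0.30 to 0.14, limma adjusted p = 0.849), and this value moved to between -0.14 and -0.00754 when single arrays were left out (replicate 3 at 4 h and replicate 4 at 0 h).

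The gene ddl-1, whose product is related to the WASH complex subunit CCDC53 of mammals, lay at 9.04, 9.17, 8.94 and 9.11 at 0 h, at 9.10 and 8.98 at 1 h, at 9.09 and 9.12 at 2 h, and at 9.01, 9.02, 8.85 and 8.97 at 4 h. It was lower at 4 h in each of the 4 replicate numbers, by values from -0.15 to -0.03, though the groups overlapped. The change at 4 h was -0.10 (SE 0.0728, 95% interval -0.26 to 0.06, limma adjusted p = 0.664). The gene ddl-2, whose product is related to WASH proteins, lay at 6.70, 6.72, 6.66 and 6.65 at 0 h, at 6.65 and 6.63 at 1 h, at 6.50 and 6.77 at 2 h, and at 6.86, 6.65, 6.61 and 6.57 at 4 h. Its replicates at 2 h and at 4 h fell on both sides of 0 h, and its change at 4 h was -0.01 (95% interval -0.18 to 0.17, limma adjusted p = 0.989).

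The probe set shared by hsf-2 and Y53C10A.15 had the largest change of the 9. It lay at 4.06, 3.87, 3.91 and 3.63 at 0 h, at 3.91 and 3.63 at 1 h, at 3.32 and 3.42 at 2 h, and at 3.56, 3.71, 3.26 and 3.59 at 4 h. Both arrays of 2 h lay below every array of 0 h, as on 11.7% of all probe sets, while the 4 h and 0 h arrays overlapped. Its change was -0.50 at 2 h (SE 0.139, 95% interval -0.80 to -0.20, limma adjusted p = 0.137, unadjusted p = 0.00324) and -0.34 at 4 h (SE 0.113, 95% interval -0.58 to -0.10, limma adjusted p = 0.179). By size this change at 2 h reached that of 97.5% of probe sets or exceeded it. The signal lay near the lower quartile of all probe sets at 0 h (3.60). Detection calls were not used here, so how far this signal stood over background is unknown. A filter that keeps the brighter 50% of probe sets removes it.

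**Figure D3:**
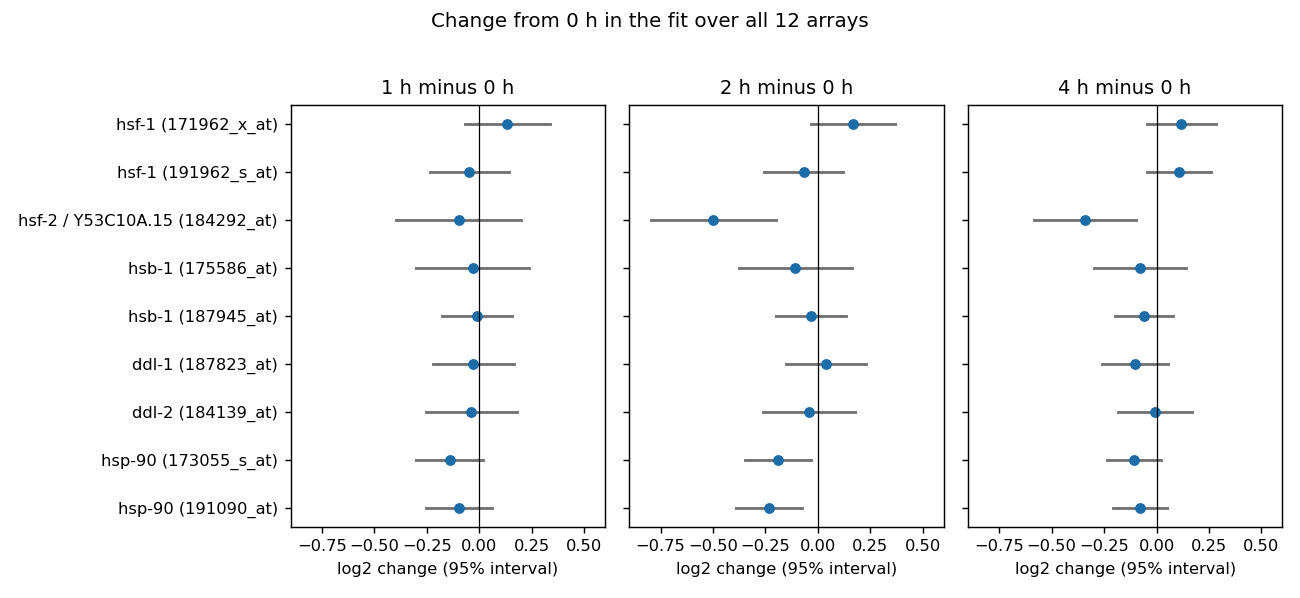
Log2 change from 0 h (horizontal axis) with its 95% interval from the limma fit over 12 arrays, for the 9 probe sets (vertical axis) at 1 h, 2 h and 4 h. Intervals that leave out 0 are those of hsp-90 (both probe sets) at 2 h and of the probe set shared by hsf-2 at 2 h and 4 h, and none of these passed after adjustment over all probe sets.

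Transcripts that heat-shock factor is known to switch on did fall over the same hours. Of 11 heat-inducible small heat-shock and HSP70 genes listed, 9 were covered by 7 probe sets, and 6 of these fell at 4 h while 0 rose and 1 missed the threshold. Their median change was -0.88, against -0.01 over all genes. At 2 h 2 fell, both of them probe sets of the HSP70 genes F44E5.5 and F44E5.4. At 1 h 0 passed in limma (3 at an unadjusted p under 0.05). Over all 17118 genes, 178 were called lower at 4 h, 61 at 2 h and 0 at 1 h, where 6.44% had an unadjusted p under 0.05. The largest changes of the heat-inducible probe sets at 4 h were -2.79 on the probe set of hsp-16.49 and hsp-16.48, -2.55 on that of hsp-16.11 and hsp-16.1, and -1.34 on hsp-16.2, all small heat-shock genes. The small heat-shock gene hsp-16.41 changed by -0.84, and the 2 probe sets of the HSP70 genes F44E5.5 and F44E5.4 by -0.88 and -0.76. The probe set of hsp-16.11 and hsp-16.1, small heat-shock genes, went from 7.57 ± 0.335 to 5.02 ± 0.509 (SD, n = 4 each) at 4 h, and hsp-70 changed by -0.34 (limma adjusted p = 0.0729). At 0 h hsp-16.41 (3.51) and hsp-70 (3.56) lay below the lower quartile of all probe sets (3.60). So did the probe set of F44E5.5 and F44E5.4 that changed by -0.76 (3.30 at 0 h). The other heat-inducible probe sets lay above it. How far the dim signals stood over background is unknown, since detection calls were not used.

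The course over time is given side by side for hsp-90 and heat-inducible probe sets. At 2 h hsp-90 was at its lowest, with changes of -0.23 and -0.19, and lay at -0.08 and -0.11 at 4 h. The probe set of hsp-16.11 and hsp-16.1 stood at -0.34 at 1 h, -0.91 at 2 h and -2.55 at 4 h. These comparisons share the 0 h arrays, and a difference in time course between the genes was not tested.

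**Figure D4:**
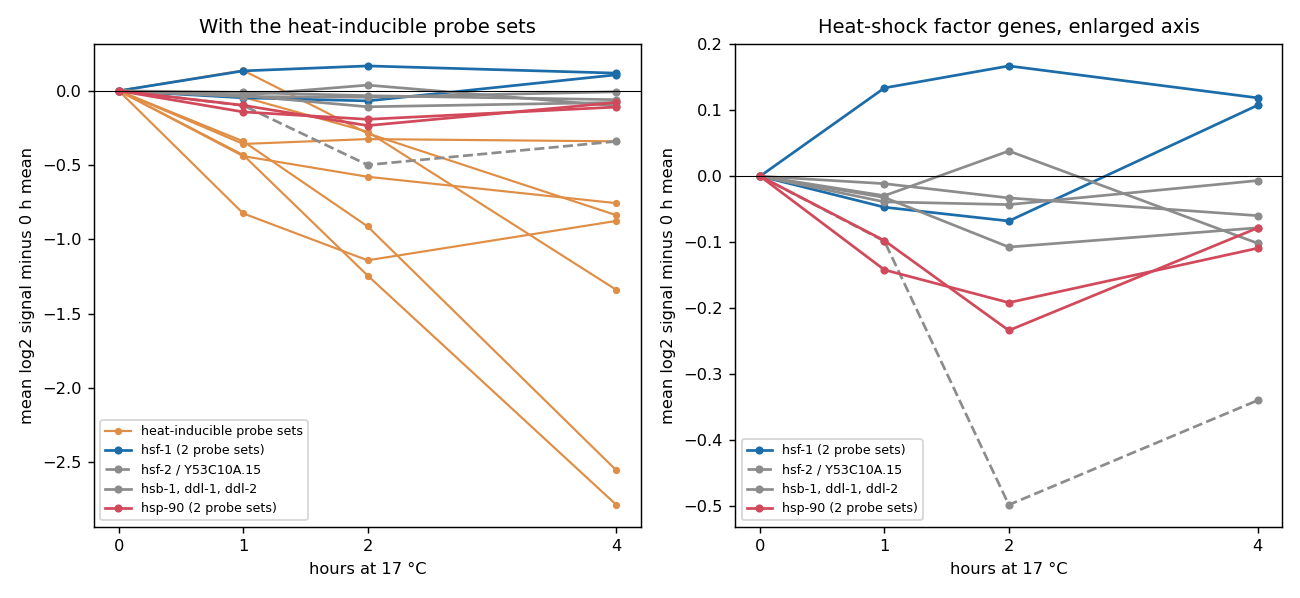
Mean log2 signal minus the 0 h mean (vertical axis) against hours at 17 °C (horizontal axis); on the left the 9 probe sets stand beside the 7 heat-inducible ones (orange), and on the right alone on an enlarged axis. The heat-inducible means reach -2.79 at 4 h, while the single-gene probe sets stay between -0.23 and 0.17 at all times.

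No gene of the HSP90 and HSP70 partner lists passed at 4 h. Of 10 HSP90 co-chaperone genes 0 passed in limma (3 at an unadjusted p under 0.05), 8 lay below 0 and the median change was -0.05. Of all 17118 genes 2217 had an unadjusted p under 0.05 at 4 h, 54.6% lay below 0 and the median was -0.01. The median size of a change at 4 h, whatever its sign, was 0.0809 over all probe sets. The HSP90 activator gene ahsa-1 changed by -0.25 (SE 0.0636, limma adjusted p = 0.0676), from 11.29 ± 0.0334 to 11.04 ± 0.0231 (SD, n = 4 each), and stood at -0.23 at 1 h and -0.27 at 2 h. The gene sti-1, whose protein links HSP70 to HSP90, changed by -0.20 (limma adjusted p = 0.215). Of 7 genes of the cytosolic HSP70 system 0 passed at 4 h (2 at an unadjusted p under 0.05) and 7 lay below 0, with a median of -0.09. Examples are unc-23, which encodes a BAG-domain cochaperone (-0.33, limma adjusted p = 0.0593), and the HSP40 gene dnj-19 (-0.23, limma adjusted p = 0.22). At 2 h, where hsp-90 was lowest, 0 of these 7 passed, 4 had an unadjusted p under 0.05 in limma and 7 lay below 0. Their median at 2 h was -0.26. Of the 10 co-chaperone genes 0 passed at 2 h, 2 had an unadjusted p under 0.05 and 6 lay below 0, with a median of -0.01. Over all genes the shares at 2 h were 12.8% with an unadjusted p under 0.05 and 53.4% below 0.

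Other genes known to act on HSF-1 did not pass at 4 h either. Of 10 such genes, which include the insulin receptor gene daf-2, the FOXO factor gene daf-16 and the sirtuin gene sir-2.1, 0 passed in limma (1 at an unadjusted p under 0.05) and 9 lay above 0, with a median of 0.07; over all genes 45.4% lay above 0. The histone demethylase gene jmjd-3.1 changed by 0.45 (SE 0.134, limma adjusted p = 0.127) and the DP-family gene dpl-1, a partner of E2F, by 0.17 (limma adjusted p = 0.494). At 2 h 7 of these 10 lay below 0, as did 53.4% of all genes. WASH proteins serve actin nucleation in mammals. Of 11 genes listed for actin nucleation and filament capping, 4 were matched by symbol and 0 passed (0 at an unadjusted p under 0.05), such as cap-2 (-0.12) and wve-1 (-0.05). The arx genes of that list were not matched and so were not examined. Thermosensory neurons and serotonin are known to influence HSF-1 in other tissues. Of 8 genes of the thermosensory circuit and of serotonin synthesis, 0 passed (0 at an unadjusted p under 0.05), such as ttx-3 (0.19) and tax-2 (-0.24). At 0 h tph-1 (2.62) and tax-2 (3.41) lay below the lower quartile of all probe sets (3.60).

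The genes whose pattern over the 12 arrays was most like each member are given as a description, without a test, since 22548 probe sets were searched. For hsf-1 (191962_s_at) these were T24E12.10 (Pearson r = 0.978), lmd-3 (0.961) and mtm-5 (0.957), and for hsp-90 (191090_at) prk-1 (0.936), rexd-1 (0.931) and mig-5 (0.928). For hsb-1 (187945_at) they were mff-2 (0.888), mdt-22 (0.864) and F49C12.12 (0.863), for ddl-1 ccch-1 (0.898), mtq-2 (0.897) and mdt-28 (0.889), and for ddl-2 gei-3 (0.972), gcy-20 (0.911) and T28C12.1 (0.908). The probe set shared by hsf-2 was most like D1007.15 (0.943), C55A6.8 (0.893) and srxa-9 (0.887). Some of these matches were dim. The mean signals of gei-3 (3.02), T28C12.1 (2.54), C55A6.8 (2.19) and srxa-9 (3.08) lay below the lower quartile of all probe sets at 0 h (3.60).

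Array medians lay between 5.50 and 5.57 log2 units, and precision is limited by how few arrays there are. Markers of adult tissues were read at 0 h. The yolk genes vit-2 and vit-6 stood at 12.6 and 13.9, the eggshell gene cpg-1 at 12.4 and the adult cuticle gene col-19 at 10.7. The muscle gene unc-54 stood at 10.1, the neuronal gene unc-119 at 7.35, the pharynx gene myo-2 at 5.90 and the intestine gene elt-2 at 5.25. The signal of elt-2 lay below the median of all probe sets at 0 h (5.52), and detection calls were not used. Of these 8 markers 0 passed in limma at 4 h (2 at an unadjusted p under 0.05), with changes from -0.23 to 0.20. Signals of different probe sets are not compared as transcript amounts here, since each responds with its own strength.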

How the data were processed

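The signals deposited by the authors are on a log2 scale, 1 per probe set and array, and were produced with RMA per the submitters' processing notes. Neither the RMA version nor a build is named in the sources available. Base 2 was taken from the usual RMA output and the span of the signals (1.51 to 14.4). The sorted signals of an array lay within 0.11 of the mean of the sorted arrays. Scanner files were not used here.

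A model with 1 mean per time was fitted over 12 arrays and 22548 probe sets in R 4.3.3 with lmFit and eBayes of limma 3.58.1 (8 residual and 5.03 prior degrees of freedom), two-sided, with Benjamini-Hochberg adjustment and a threshold of 0.05. All times share 1 estimate of the spread. Names came from the platform annotation (20766 probe sets with 1 symbol, 887 with several, 895 unnamed here); a gene of a list is read by its brightest probe set. The fit was tested on simulated data.

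Deviations from the time mean correlated between 0 h and 4 h arrays of one replicate number (r = 0.169 to 0.314 in 4 pairs, -0.29 to 0.147 across numbers). For that comparison the steps within numbers are therefore given, from the values and not from the labels. The main fit, its intervals and the exact permutation tests did not use these pairs. Only the replicate block, an alternative, did. Between 0 h and the earlier times the deviations did not correlate in this way (r = -0.0701 and -0.075 with 1 h, 0.00773 and -0.0532 with 2 h). With only replicates 1 and 2 at 1 h and 2 h, the deviations there are mirror images. A shift shared by replicates 1 and 2 against 3 and 4 would cancel out of this check. Between 0 h and 4 h arrays, r across numbers was 0.091 and 0.128 for replicates 1 with 2. It was 0.0362 and 0.147 for 3 with 4, and -0.29 to -0.122 between these sets. The check thus cannot decide whether a block by replicate number suits the comparisons of 1 h and 2 h. Alternatives were the replicate block, replicates 1 and 2 only, 0 h and 4 h only, other scalings, a filter on dim probe sets, eBayes with trend and robust, each array left out, and exact permutation tests.

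The members, lists and tests were chosen with earlier results of these data known. All members are named; of each list, up to 4 called genes at 4 h, or the 2 of smallest p where none was called, and all shared probe sets of heat-inducible genes.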

Additional observations from a re-analysis of the deposited data

Results flagged for a closer look

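Of 18 groups of 4 arrays tested (9 probe sets at 0 h and 4 h), 2 held 1 array far from the other 3 by Dixon's test at the 95% level; chance flags about 1 group in 20. On hsf-1 (171962_x_at) replicate 2 at 0 h stood at 9.75 while the others lay at 9.78 to 9.79. On hsp-90 (191090_at) replicate 2 at 0 h stood at 13.12 while the others lay at 13.19 to 13.20. Both arrays are the same one, and it was the lowest in each case.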

How the results depend on the processing

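All values here are log2 changes from 0 h unless counted. No call of the 36 member comparisons was gained or lost except as given here. With eBayes trend and robust, 2 members were called at 2 h, 2 for the mean of 1 h and 2 h, and 1 by the F test. These were hsp-90 at -0.19 (173055_s_at) and -0.23 (191090_at) at 2 h and -0.17 on both for the mean of 1 h and 2 h, and the same with trend alone but not with robust alone, both added after seeing the data. With the replicate block added as well, they were called at -0.20 and -0.21 at 2 h and at -0.18 and -0.15 for the mean. Whether that block suits these times could not be decided from the values. Calls that remained with 1 array left out lay between -0.25 and -0.23 for 191090_at at 2 h, and at -0.17 (173055_s_at) and -0.19 or -0.17 (191090_at) for the mean. The exact permutation tests gave an unadjusted p of 0.0286 at 4 h for hsf-1 (171962_x_at, 0.12) and hsp-90 (173055_s_at, -0.11).

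With the replicate block, and with replicates 1 and 2 only, small changes turned sign. They became -0.00679 and -0.00128 for ddl-1 at 2 h, -0.041 and -0.035 for ddl-1 over the mean of 1 h and 2 h, and, for hsb-1 (175586_at), 0.092 and 0.124 at 1 h, 0.017 and 0.049 at 2 h and 0.054 and 0.086 over the mean. With replicates 1 and 2 only ddl-2 was at 0.048 at 4 h. Median centring put ddl-1 at -0.023 over the mean. Quantile normalization put hsb-1 (187945_at) at 0.011, 0.00305 and 0.00692 at 1 h, 2 h and the mean. For hsf-1, taking 171962_x_at in place of 191962_s_at gave 0.13, 0.17 and 0.15 at 1 h, 2 h and the mean. The cause of each was not tested.

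Leaving out single arrays kept 0 members called in the default setting. Signs turned within these ranges: ddl-1 -0.090 to 0.031 (1 h), -0.00225 to 0.073 (2 h) and -0.036 to 0.040 (mean); ddl-2 -0.18 to 0.093 (2 h), -0.070 to 0.029 (4 h) and -0.11 to 0.027 (mean); hsb-1 (175586_at) -0.091 to 0.038, -0.23 to 0.016 and -0.13 to 0.000879 (1 h, 2 h and mean); hsb-1 (187945_at) -0.049 to 0.026 (1 h) and -0.052 to 0.00463 (mean); the hsf-2 probe set -0.24 to 0.044 (1 h). Without a turn of sign, hsf-1 (171962_x_at) ranged from 0.031 to 0.24 at 1 h, 0.029 to 0.31 at 2 h and 0.082 to 0.22 for the mean, and at 4 h ddl-1 ranged from -0.14 to -0.064, hsb-1 (187945_at) from -0.089 to -0.033 and hsb-1 (175586_at) from -0.14 to -0.00754. Over all probe sets, 0 to 11 were called at 1 h (11 without 1 h replicate 1), 35 to 368 at 2 h (without 2 h replicate 2 and replicate 1), 324 to 543 at 4 h (324 without 4 h replicate 3), 215 to 457 by the F test (215 without 4 h replicate 3) and 47 to 238 for the mean (without 2 h replicate 2 and replicate 1). The block gave 414 at 2 h and 255 for the mean, against 218 and 150, and replicates 1 and 2 only gave 32, 25 (4 h, against 518), 3 (F test, against 400) and 0 for the mean. The filter on dim probe sets left no value for the hsf-2 probe set.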
